A study of Homo sapiens with 6 samples.

Results

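Fatty acids enter most of their metabolic pathways after an acyl-CoA synthetase has joined them to coenzyme A, and acyl-CoA thioesterases take the coenzyme off again. The 10 genes described here code for 7 enzymes of the first kind (ACSL1, ACSL3, ACSL4, ACSL5, ACSF2, ACSF3 and SLC27A4) and 3 of the second (ACOT2, ACOT7 and ACOT9). They were chosen by name, as rows of a table of 23002 genes, and all 10 had a row. An acyl-CoA can be built into triglycerides, phospholipids and cholesterol esters or sent to mitochondria for oxidation, and its hydrolysis returns a free fatty acid and free coenzyme A. The members act at different places. Textbook descriptions put the ACSL enzymes on the membranes of the endoplasmic reticulum, mitochondria and lipid droplets, ACSF2, ACSF3, ACOT2 and ACOT9 in mitochondria, and ACOT7 mainly in the cytosol.

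Messenger RNA was sequenced from U251, an established human glioblastoma line, to ask which transcripts change when TRAF2, an adaptor and ubiquitin ligase of tumor necrosis factor receptor signaling, is lowered. The control group, sh-NC (3 samples, NC in the labels), carried a lentivirus with a non-targeting short hairpin RNA (shRNA). The knockdown group, sh-TRAF2 (3 samples, KD in the labels), carried a lentivirus with an shRNA against TRAF2. Cells of both groups were infected, selected with puromycin as stable lines and grown in medium with fetal bovine serum, and neither the labels nor the methods of the sequencing name added TNF-α for them. The samples are described as biological replicates, but how many independent infections they stand for is not given in the sources used here, so the p-values measure the spread between these samples.

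Values are FPKM, fragments per kilobase of gene scaled to the depth of the library, a level per length that allows genes to be compared with each other. TRAF2 was at 15.1, 18.4 and 15.3 FPKM in sh-NC and at 3.26, 3.22 and 3.33 in sh-TRAF2, so the target was low in all 3 knockdown samples. The fitted log2 fold change was -2.27 with a 95% interval from -2.46 to -2.09 (limma, adjusted p = 1.16e-06). The library totals recovered from the FPKM steps were 34315233 to 37165301 reads. Log2 levels correlated across genes at 0.993 to 0.995 within a group and at 0.979 to 0.985 between groups. Of 8 glial and glioma markers 7 were tested and 3 were higher in sh-TRAF2 (GFAP, VIM and NES), against 23.7% of all tested genes. NES was at 4.82 to 5.88 FPKM in sh-NC and at 11.4 to 11.8 in sh-TRAF2 (log2 fold change 1.12). VIM was at 1208 to 1284 FPKM in sh-NC and at 1557 to 1606 in sh-TRAF2. GFAP stayed between 0.334 and 1.62 FPKM with overlapping groups, and S100B had 1 read in all. Among 14 markers of other cell types, 12 had a row and only CD68, KRT8 and KRT18 were abundant enough to test. Of these 3, KRT8 and KRT18 were called higher (adjusted p = 0.0134 and 8.74e-05 from limma) and CD68 was not called. The summed level of the markers of other cell types was 33.0 to 36.1 FPKM in sh-NC and 43.3 to 46.5 in sh-TRAF2. The difference lay mostly in KRT18 (16.3 to 18.6 against 26.5 to 27.8 FPKM). Of the untested markers, COL1A1 had 9 to 43 reads per sample, CDH5 2 to 12, VWF 1 to 8 and MBP 0 to 5. PTPRC, PECAM1, EPCAM, CDH1 and RBFOX3 had at most 2 reads in any sample. The part of these marker differences in the results was not tested.

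The shRNA is processed into a guide that lowers transcripts with a matching sequence, and the sources used here do not say which of the study's TRAF2 target sequences was carried by the sequenced line. Both are shown because a partial match would bear on a member that fell. The capitals mark bases 14 to 20 of each target, the letters that pair with bases 2 to 8 of a guide that is the reverse complement of the target (its seed).
sh-TRAF2#1: cccttgcagattcCACGCCAt
sh-TRAF2#2: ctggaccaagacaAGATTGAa
Both targets matched TRAF2 over all 21 bases. In the transcripts of the 10 members (GENCODE release 29) the longest run shared with the first target was 7 or 8 bases, and with the second 8 to 11 bases, the longest in SLC27A4. The seed letters were searched for in the longest 3′ untranslated region of each gene. Those of the first target were found in 1 member, SLC27A4, and in 6.14% of the 10822 tested genes with such a region. Those of the second were found in 0 of the 10 members and in 12.3% of these genes. The SLC27A4 site, with the match in capitals, begins at base 805 of 979.
SLC27A4 site: ttgatccccCACGCCAaccccctgg
The search covers perfect matches to these 7 letters in that region only, and whether the hairpin lowered a member directly was not tested.

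After TRAF2 knockdown 4 of the 10 members fell, namely the synthetases ACSL3, ACSL5 and ACSF2 and the thioesterase ACOT2, and ACOT7 rose slightly. The test was limma on log2(FPKM + 0.1) over the 11870 genes whose mean reached 0.5 FPKM, two-sided, with a gene called at a Benjamini-Hochberg adjusted p under 0.05. All 10 members passed the filter on low values. Of all tested genes, 44.6% were called, 23.7% higher and 20.9% lower, so 5 of 10 members called is close to the background, with 4 lower and 1 higher. The median log2 fold change was -0.18 over the members and 0.02 over all tested genes. The groups did not overlap in 7 of 10 members and in 55.5% of all tested genes. With the study's further threshold, an absolute log2 fold change above 1, ACSF2 was the only member called lower, against 0.733% of tested genes. In bulk RNA a smaller share of cells with a transcript and less of it per cell cannot be told apart.

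**Figure D1:**
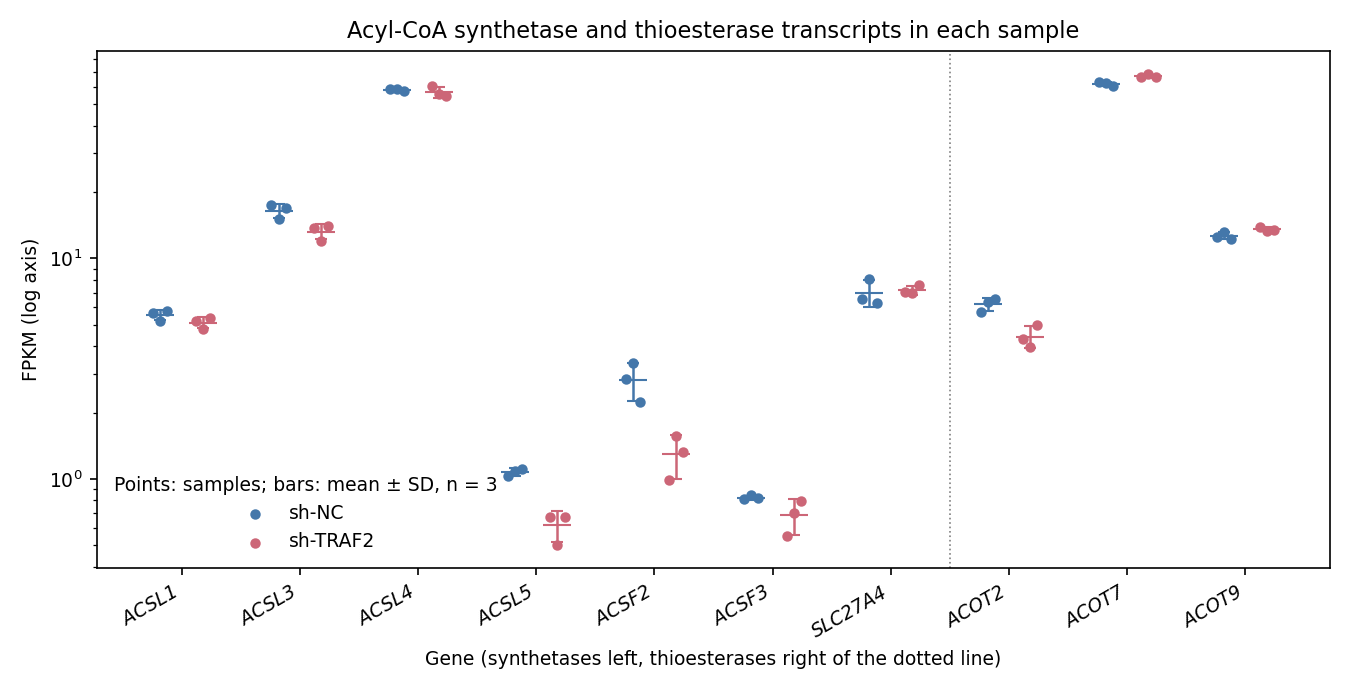
FPKM of each member on a log axis, with a point for each sample, a horizontal bar for the mean and error bars for the SD (n = 3 per group), sh-NC in blue and sh-TRAF2 in red. ACOT7 and ACSL4 lie near 60 FPKM in both groups, and the sh-TRAF2 points lie below all sh-NC points for ACSL3, ACSL5, ACSF2, ACSF3 and ACOT2.

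The 10 levels spanned a wide range. In sh-NC the order was ACOT7 (62.0 ± 1.36 FPKM, SD, n = 3), ACSL4 (58.2 ± 0.528), ACSL3 (16.4 ± 1.25), ACOT9 (12.7 ± 0.453), SLC27A4 (6.99 ± 0.974), ACOT2 (6.20 ± 0.432), ACSL1 (5.55 ± 0.295), ACSF2 (2.81 ± 0.554), ACSL5 (1.07 ± 0.0433) and ACSF3 (0.823 ± 0.0166). Neighbours in this order were separated in every sample, except that SLC27A4 overlapped ACOT2 and ACOT2 overlapped ACSL1. In sh-TRAF2 ACOT9 stood before ACSL3, ACSL1 before ACOT2 and ACSF3 before ACSL5, and within each of these pairs the samples overlapped. ACOT7 and ACSL4 were thus the main thioesterase and synthetase transcripts of the set in both groups, at the 91.6 and 90.5 percentile of all tested genes. ACSF3, a mitochondrial malonyl-CoA synthetase, was at the 5.4 percentile. Its level is spread over a gene length of 16124 bases recovered from the FPKM values. GENCODE gives ACSF3 14618 exonic bases over all its transcripts and 7020 bases in the longest.

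The ACSL family activates long-chain fatty acids, and its members differ in substrate preference and in place. ACSL4, which prefers arachidonic acid and other polyunsaturated chains, was at 58.4, 58.5 and 57.6 FPKM in sh-NC and at 60.5, 55.6 and 54.5 in sh-TRAF2. Its groups overlapped and its log2 fold change was -0.03 (95% interval -0.14 to 0.07, adjusted p = 0.561 from limma), on 10299 to 11546 reads per sample. ACSL1, an isoform of the endoplasmic reticulum and the outer mitochondrial membrane, was at 5.67, 5.21 and 5.76 FPKM in sh-NC and at 5.18, 4.79 and 5.37 in sh-TRAF2. The difference, a log2 fold change of -0.12 (95% interval -0.27 to 0.04, adjusted p = 0.203 from limma), did not pass the test.

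ACSL3, an isoform of the endoplasmic reticulum and of growing lipid droplets, was at 17.4, 15.0 and 16.9 FPKM in sh-NC and at 13.7, 12.0 and 14.0 in sh-TRAF2. All knockdown samples lay below all controls, with 2306 to 2737 reads against 2999 to 3507. The mean was lower by 19.5% and the log2 fold change was -0.31 (95% interval -0.48 to -0.14, adjusted p = 0.0105 from limma). ACSL5, found on mitochondria and the endoplasmic reticulum and best known from intestine and liver, was a minor transcript here, at 1.03, 1.08 and 1.11 FPKM in sh-NC and at 0.670, 0.502 and 0.673 in sh-TRAF2. The sh-TRAF2 samples were again all lower, on 65 to 89 reads against 138 to 156. Its log2 fold change of -0.72 (95% interval -1.07 to -0.37, adjusted p = 0.00569 from limma) placed it at the 2.1 percentile of all tested genes, counted from the lowest, against the 13.7 percentile for ACSL3. The pseudocount of 0.1 understates changes at such low levels, and the percent difference of the mean FPKM of ACSL5 was -42.7%, while a pseudocount of 1 gave a log2 fold change of -0.36, still called. AL157786.1 overlaps 5.29% of the exonic bases of ACSL5 on the other strand, and exons of ZDHHC6 also overlap it. Whether the counting used strand is not given, so a part of these few reads is uncertain.

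Within the summed FPKM of the 5 ACSL genes of the table, ACSL4 made up 71.6% ± 1.45 (SD, n = 3) in sh-NC and 75.0% ± 1.65 in sh-TRAF2. The share of ACSL3 was 20.2% ± 1.23 and 17.5% ± 1.18, that of ACSL5 1.32% ± 0.0674 and 0.810% ± 0.110, and that of ACSL1 6.83% ± 0.281 and 6.75% ± 0.398. ACSL6, an isoform of neurons and erythroid cells, contributed 0 to 4 reads per sample. These shares are a description without a test. The ratio of ACSL4 to ACSL3 FPKM, which needs no scaling between samples, was 3.36, 3.89 and 3.40 in sh-NC and 4.42, 4.62 and 3.89 in sh-TRAF2. The groups overlapped at 3.89, the mean log2 ratio was higher by 0.28 in sh-TRAF2, and the difference did not pass a two-sided exact permutation test (p = 0.2, where 3 samples against 3 cannot give less than 0.1).

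**Figure D2:**
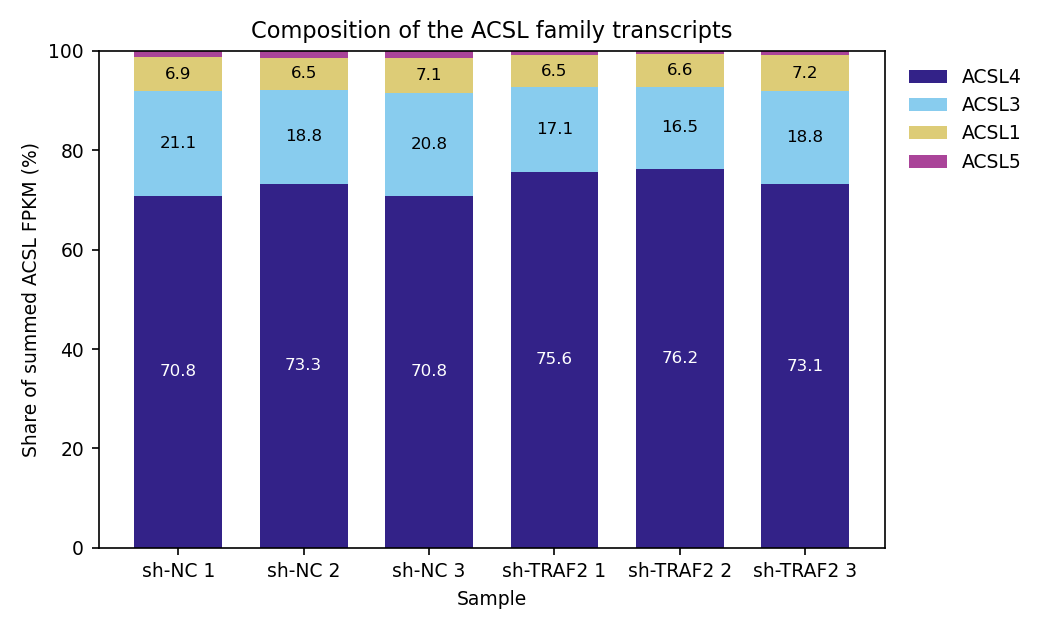
Share (%) of each ACSL gene in the summed ACSL FPKM of each of the 6 samples, stacked from 0 to 100, with values printed for shares large enough to hold them. ACSL6 is in the total but too small to draw. ACSL4 takes 70.8 to 73.3% in sh-NC and 73.1 to 76.2% in sh-TRAF2, and the ACSL3 band is 18.8 to 21.1% against 16.5 to 18.8%.

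The ACSF enzymes are mitochondrial relatives of the ACSL family. ACSF2, which activates medium-chain fatty acids, was at 2.85, 3.35 and 2.24 FPKM in sh-NC and at 0.988, 1.57 and 1.33 in sh-TRAF2. The lowest control lay above the highest knockdown sample, and the reads were 239, 282 and 196 against 81, 127 and 110. With a log2 fold change of -1.06 (95% interval -1.49 to -0.64, adjusted p = 0.00227 from limma) it fell furthest of the 10 members and stood at the 0.6 percentile of all tested genes. Its place past the fold-change threshold rested on single samples, with -0.93 without sh-NC replicate 2, -0.89 without sh-TRAF2 replicate 1 and -0.73 with a pseudocount of 1. The adjusted p stayed under 0.05 in each of these fits. ACSF2 lies on the plus strand of chromosome 17 (GRCh38, 50426158 to 50474845), where 4.66% of its exonic bases overlap CHAD on the other strand. CHAD had 1, 2 and 0 reads in sh-NC and 0 in every sh-TRAF2 sample.

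ACSF3 turns malonate into malonyl-CoA inside mitochondria and serves mitochondrial fatty acid synthesis. It was at 0.808, 0.841 and 0.819 FPKM in sh-NC and at 0.551, 0.703 and 0.797 in sh-TRAF2. The knockdown samples were all lower but spread widely, on 309 to 451 reads, and the log2 fold change of -0.25 (95% interval -0.62 to 0.13, adjusted p = 0.248 from limma) did not pass the test. It was -0.12 without sh-TRAF2 replicate 1 and also with a pseudocount of 1. LINC00304 overlaps 8.04% of its exonic bases on the same strand, so a part of its reads is uncertain. SLC27A4, the fatty acid transport protein FATP4, couples uptake of long-chain fatty acids to their activation. It was at 6.57, 8.11 and 6.30 FPKM in sh-NC and at 7.03, 6.94 and 7.57 in sh-TRAF2, with the highest and the lowest sample both in sh-NC. The log2 fold change was 0.05 (95% interval -0.17 to 0.26, adjusted p = 0.715 from limma), and it was -0.02 without sh-NC replicate 3 and 0.16 without sh-NC replicate 2.

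**Figure D3:**
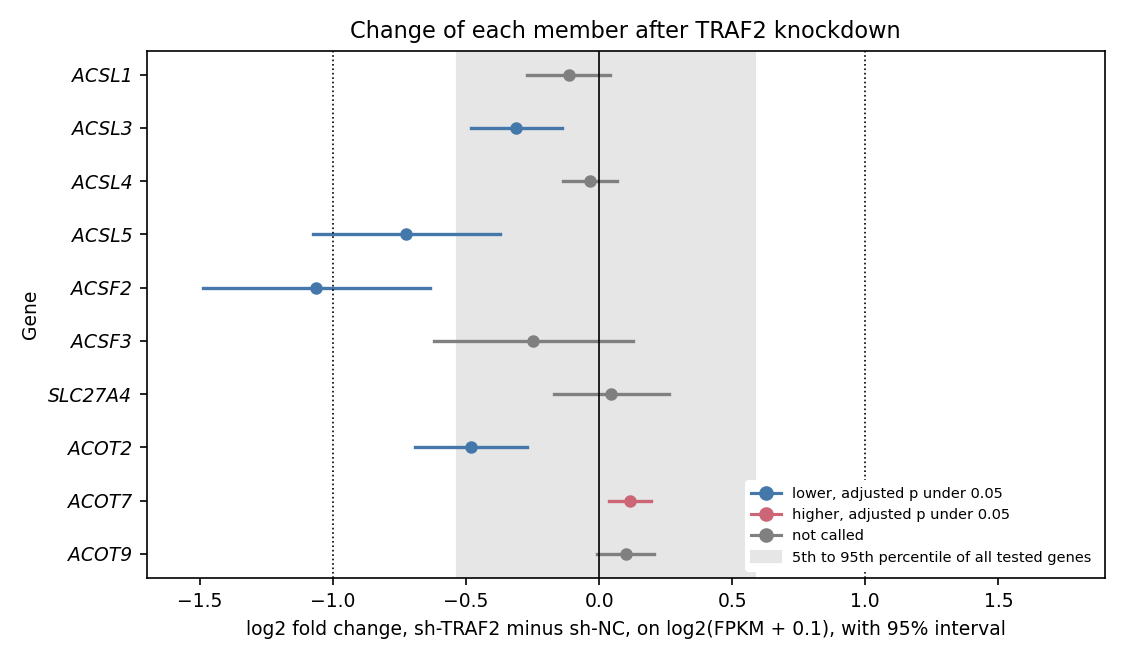
Log2 fold change (sh-TRAF2 minus sh-NC, on log2(FPKM + 0.1)) of each member with its 95% interval, colored by the call at an adjusted p under 0.05. The grey band spans the 5th to 95th percentile of all tested genes (-0.53 to 0.59) and the dotted lines mark the fold-change threshold. ACSF2 and ACSL5 lie outside the band, the points of ACSL3 and ACOT2 lie inside it with intervals below 0, and ACOT7 lies near the middle.

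The thioesterases did not move together. ACOT2, which hydrolyses long-chain acyl-CoA in the mitochondrial matrix, was at 5.72, 6.32 and 6.55 FPKM in sh-NC and at 4.29, 3.99 and 4.98 in sh-TRAF2. Every knockdown sample was lower, on 260 to 332 reads against 387 to 463. The log2 fold change was -0.48 (95% interval -0.69 to -0.27, adjusted p = 0.00336 from limma). ACOT2 has a cytosolic neighbour of nearly the same sequence, ACOT1. Of the 1675 windows of 100 bases in the longest ACOT2 transcript, 32.6% occur unchanged in ACOT1, so reads from these stretches cannot be placed with certainty. ACOT1 itself was given 0, 0 and 2 reads in sh-NC and 0, 0 and 1 in sh-TRAF2.

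ACOT7, a long-chain thioesterase abundant in brain, was at 62.9, 62.6 and 60.4 FPKM in sh-NC and at 66.4, 68.5 and 66.5 in sh-TRAF2. The knockdown samples were all higher, by 8.28% in the mean, with a log2 fold change of 0.11 (95% interval 0.04 to 0.19, adjusted p = 0.0267 from limma). This call was lost in 4 of the 6 fits that left out a sample, with adjusted p = 0.0542 without sh-NC replicate 1, 0.0852 without sh-NC replicate 3, 0.0880 when sh-TRAF2 replicate 2 and 0.0611 when sh-TRAF2 replicate 3 was left out, from limma. It was also lost with quantile normalization (log2 fold change 0.07, adjusted p = 0.143) and without the trend in the variance (adjusted p = 0.0709). AL031848.2 overlaps 20.3% of the exonic bases of ACOT7 on the other strand, and whether the counting used strand is not given in the sources used here. ACOT9, a mitochondrial thioesterase, was at 12.5, 13.2 and 12.3 FPKM in sh-NC and at 13.9, 13.3 and 13.5 in sh-TRAF2. The groups were separate by a narrow margin, and the log2 fold change of 0.10 (95% interval -0.01 to 0.21, adjusted p = 0.121 from limma) did not pass the test.

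For each of the 5 called members the 2 groups were fully separated, which gives p = 0.1 in a two-sided exact permutation test, the smallest that 3 samples against 3 allow. The same held for ACSF3 and ACOT9, which were not called, so this test does not set the called members apart. Summed over the 7 synthetases the level was 92.7, 92.1 and 90.7 FPKM in sh-NC and 88.6, 82.2 and 84.2 in sh-TRAF2. Summed over the 3 thioesterases it was 81.1, 82.1 and 79.3 against 84.6, 85.8 and 85.0. The synthetase sums were thus all lower and the thioesterase sums all higher in sh-TRAF2. The total of the 10 members was 174, 174 and 170.0 FPKM against 173, 168 and 169. ACSL4 and ACOT7 dominate the size of these sums, which were not tested. In the means ACSL4 went from 58.2 to 56.9 FPKM, ACSL3 from 16.4 to 13.2 and ACSF2 from 2.81 to 1.30, while SLC27A4 went up from 6.99 to 7.18. Of the thioesterases, ACOT7 went from 62.0 to 67.1 and ACOT2 from 6.20 to 4.42.

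By the gene ontology terms of the deposited table, 7 members belong to long-chain fatty acid metabolic process (the 4 ACSL genes, ACSF2, SLC27A4 and ACOT2), and the 4 that fell are all among them. Of the 13 tested genes of the term, which include these 7, 53.8% were lower and 7.69% higher. That term chose no member here, but it was already known to be lower in these samples and is not independent evidence. ACSF2, ACSF3, ACOT2 and ACOT9 are annotated to the mitochondrial matrix, and 2 of these 4 were lower. Of the 319 tested genes of the matrix, 19.1% were lower and 28.2% higher. ACSL1, ACSL3, ACSL4, ACSL5 and SLC27A4 are annotated to the membrane of the endoplasmic reticulum, and 2 of these 5 were lower, against 26.4% of 760 tested genes. The members that fell are therefore found at both places.

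The promoter windows of the 4 members that fell are shown so that their starts can be compared, since they moved in the same direction. Each runs from 250 bases before to 50 bases after a transcript start of RefSeq (GRCh38.p14) on the plus strand, and where RefSeq lists several starts the first was taken. The windows are chr2:222860786-222861085 for ACSL3, chr10:112375018-112375317 for ACSL5, chr17:50468079-50468378 for ACSF2 and chr14:73568809-73569108 for ACOT2. The ACSF2 window is the only one listed and belongs to a start deep inside the gene, in the part that faces CHAD, so it is not the start of the full-length transcript. Capitals mark matches, on either strand, to CCAAT, the GC box GGGCGG, the TATA box TATAAA, the E-box CACGTG, the AP-1 site TGANTCA, the sterol regulatory element TCACNCCAC, the NF-κB site (GGGA followed by 4 unspecified bases and CC) and a DR1 element (a direct repeat of AGGTCA with 1 base between).
ACSL3: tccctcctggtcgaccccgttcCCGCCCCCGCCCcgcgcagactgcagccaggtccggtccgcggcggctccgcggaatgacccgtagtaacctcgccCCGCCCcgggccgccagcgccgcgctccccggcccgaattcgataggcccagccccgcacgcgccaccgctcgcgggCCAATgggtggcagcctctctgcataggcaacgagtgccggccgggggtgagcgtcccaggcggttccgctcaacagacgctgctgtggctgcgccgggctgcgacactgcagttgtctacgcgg
ACSL5: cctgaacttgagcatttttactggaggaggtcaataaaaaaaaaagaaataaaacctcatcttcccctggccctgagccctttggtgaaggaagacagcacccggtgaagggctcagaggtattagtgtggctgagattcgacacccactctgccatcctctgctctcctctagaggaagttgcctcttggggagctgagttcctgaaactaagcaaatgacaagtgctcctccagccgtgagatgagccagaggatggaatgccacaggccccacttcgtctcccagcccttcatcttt
ACSF2: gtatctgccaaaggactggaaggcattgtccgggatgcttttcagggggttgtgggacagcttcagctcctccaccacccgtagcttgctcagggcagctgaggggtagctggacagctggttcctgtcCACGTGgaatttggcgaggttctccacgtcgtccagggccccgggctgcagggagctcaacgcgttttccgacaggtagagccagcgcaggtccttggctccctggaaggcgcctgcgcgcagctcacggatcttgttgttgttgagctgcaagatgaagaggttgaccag
ACOT2: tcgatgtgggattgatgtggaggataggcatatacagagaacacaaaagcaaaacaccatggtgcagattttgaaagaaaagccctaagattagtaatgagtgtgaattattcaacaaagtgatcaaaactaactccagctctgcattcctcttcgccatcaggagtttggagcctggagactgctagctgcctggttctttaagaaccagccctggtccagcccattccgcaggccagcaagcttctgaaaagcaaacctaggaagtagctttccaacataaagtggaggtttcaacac
The ACSL3 window has a GC content of 74.0%, a CCAAT match at base 176 and GC boxes at bases 23, 29 and 99. The ACSL5 and ACOT2 windows have a GC content of 51.0% and 45.0%, under the median of 58.7% over 35116 windows, and hold no match. The ACSF2 window has a single match, an E-box at base 130. No motif of the set was thus shared by the shown windows of these 4 members.

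All 10 members had at least 1 window, 20 in all. CCAAT was found in 7 of these 20 windows (5 members), against 34.6% of all windows. The GC box was found in 9 of the 20 (7 members, against 45.0%) and TATAAA in 2 (2 members, against 11.5%). The letters of the NF-κB site were found in 3 of the 20 (ACOT7 and ACOT9), against 25.6% of all windows. Those of the AP-1 site (ACSL1, against 7.71%) and of the sterol regulatory element (ACSL1, against 1.13%) were each found in 1. The E-box was also found in 1 (ACSF2, against 7.26%). The DR1 letters were found for 0 members and in 0.0228% of windows. A stretch of bases may match several motifs, and a member with several windows has more chances of a match, so these counts describe the letters only. Transcript starts were not measured in these cells.

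Other genes of acyl-CoA metabolism, together with thioesterases that act on proteins or on fatty acid synthase, were read from 4 lists. The calls in each list stand beside 23.7% of all tested genes called higher and 20.9% called lower. Of 20 other synthetases 14 had a row and 7 passed the filter, and 1 of these was called. It was AASDH, a member of the acyl-CoA synthetase superfamily that activates beta-alanine, which averaged 2.37 FPKM (SD 0.00963) in sh-NC and 1.86 FPKM (SD 0.106) in sh-TRAF2, each over 3 samples, for a log2 fold change of -0.34 (adjusted p = 0.0112 from limma). The mitochondrial acetate-activating enzyme ACSS1 (log2 fold change -0.30, adjusted p = 0.0955) and the acetoacetyl-CoA synthetase AACS (-0.08, adjusted p = 0.381) came next and did not pass limma's test. The cytosolic enzyme for acetate, ACSS2, was at 3.97 ± 0.355 FPKM in sh-NC and 3.93 ± 0.256 in sh-TRAF2.

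Of 16 other thioesterases 14 had a row and 9 were tested, with 2 higher and 1 lower, against 23.7% and 20.9% of all tested genes. The acyl-CoA thioesterases among them, ACOT8, ACOT13, THEM4 and HIBCH, were not called (adjusted p = 0.506, 0.843, 0.140 and 0.0651 from limma). The calls were LYPLA1, LYPLA2 and OLAH. LYPLA1 and LYPLA2 are close relatives that remove palmitate from proteins, and they moved in opposite directions. LYPLA1 went from 22.4, 24.7 and 24.3 FPKM to 20.2, 18.7 and 18.7 (log2 fold change -0.31, adjusted p = 0.00218 from limma), while LYPLA2 went from 21.4, 23.0 and 21.9 to 25.6, 28.9 and 27.0 (0.29, adjusted p = 0.00299). OLAH, a thioesterase that can release fatty acids from fatty acid synthase, was at 1.10, 0.525 and 0.532 FPKM in sh-NC and at 1.73, 1.52 and 1.17 in sh-TRAF2. Its log2 fold change was 1.00 (95% interval 0.39 to 1.61, adjusted p = 0.0157 from limma), on 37 to 77 reads against 81 to 119, and it was 0.54 with a pseudocount of 1. The OLAH call was lost when sh-TRAF2 replicate 1 (adjusted p = 0.0587) or replicate 2 (adjusted p = 0.0507) was left out, and with no filter on low values (adjusted p = 0.0617). The lysosomal enzyme PPT1, about as abundant as ACOT7 in sh-NC (means of 62.3 and 62.0 FPKM), had a log2 fold change of 0.01 (95% interval -0.08 to 0.09). In sh-TRAF2 the means were 62.6 FPKM for PPT1 and 67.1 for ACOT7.

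Of 12 carriers of acyl-CoA and fatty acids 11 had a row and 8 were tested. Among these 1 was higher and 1 lower, against 23.7% and 20.9% of all tested genes. DBI, the main cytosolic acyl-CoA binding protein, rose from 78.2, 78.1 and 76.7 FPKM to 88.5, 90.6 and 90.7, a log2 fold change of 0.21 (95% interval 0.14 to 0.28, adjusted p = 0.000965 from limma). ACBD7, a small relative of DBI, fell from 1.97, 1.97 and 2.32 FPKM to 1.26, 1.19 and 1.03, a log2 fold change of -0.79 (95% interval -1.06 to -0.53, adjusted p = 0.000934 from limma) that was -0.51 with a pseudocount of 1. ACBD7 and OLAH, which moved in opposite directions, are neighbours on chromosome 10 with 3670 bases between them and no shared exonic bases. The brain fatty acid binding protein FABP7 had a log2 fold change of 0.54 (adjusted p = 0.126 from limma), and without sh-NC replicate 3 it was called at 0.84 (adjusted p = 0.0110), while without sh-NC replicate 2 it was 0.32 (adjusted p = 0.329) and a pseudocount of 1 gave 0.24.

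The 7 genes of coenzyme A synthesis were all tested, and 1 was higher and 2 lower, against 23.7% and 20.9% of all tested genes. PPCDC, which makes phosphopantetheine, averaged 2.58 FPKM (SD 0.128) in sh-NC and 3.44 FPKM (SD 0.111) in sh-TRAF2, for a log2 fold change of 0.40 (adjusted p = 0.00272 from limma). The pantothenate kinases PANK3 (log2 fold change -0.16, adjusted p = 0.0151) and PANK2 (-0.20, adjusted p = 0.0291), which start the pathway, fell by limma's test. PANK3 lost the call without sh-TRAF2 replicate 2 (adjusted p = 0.0523). PANK2 lost it without sh-NC replicate 1 (adjusted p = 0.0655), 2 (0.0531) or 3 (0.0811) without sh-TRAF2 replicate 1 (0.0765) or 3 (0.101), and with no filter on low values (0.0561). Without sh-NC replicate 2, PANK4, named after its values were seen, was called higher at 0.23 (adjusted p = 0.0320). The medians of the log2 fold changes were -0.08 for the other synthetases, 0.01 for the other thioesterases, 0.04 for the carriers and 0.08 for coenzyme A synthesis, against 0.02 for all tested genes.

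**Figure D4:**
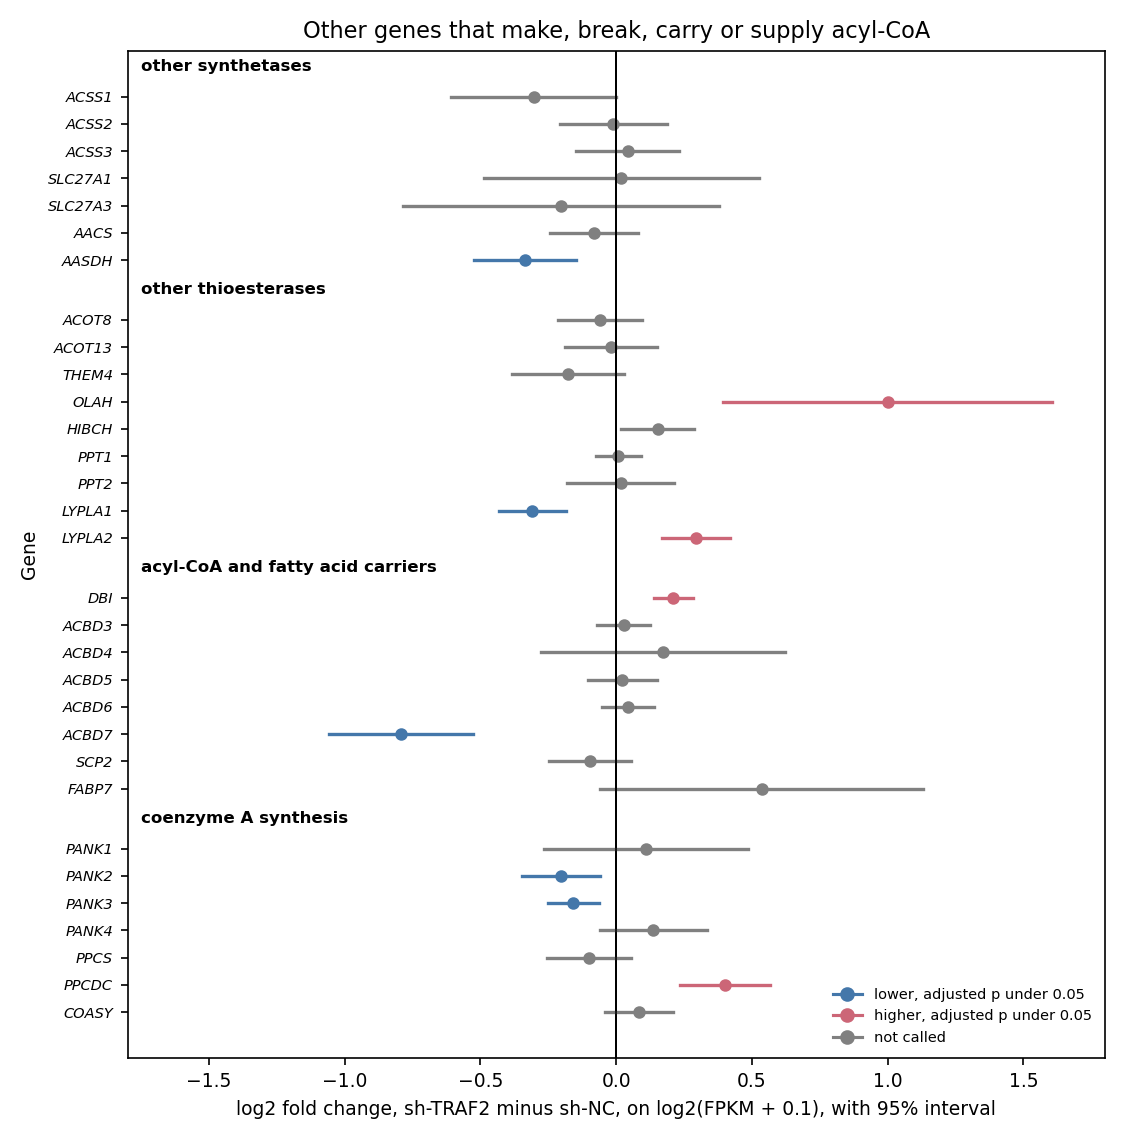
Log2 fold change (sh-TRAF2 minus sh-NC, on log2(FPKM + 0.1)) with its 95% interval for the tested genes of the 4 other lists, colored by the call at an adjusted p under 0.05. Calls in both directions appear in 3 of the lists, with OLAH at 1.00 and ACBD7 at -0.79 the farthest from 0.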

How the data were processed

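RNA was extracted with TRIzol, and a company (OE Biotech) made the libraries with a VAHTS Universal V6 kit, sequenced them and computed the values. The authors deposited 1 table of FPKM values for 23002 genes with a column per sample and gene ontology terms. The submitters' processing notes name HISAT2, HTSeq, R 3.2.0 and DESeq2, while genome build, annotation and use of strand are not given in the sources used here.

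The 6 columns were matched to the labels by their names. From the deposited FPKM, log2(FPKM + 0.1) was taken for 11870 genes (mean 0.5 or more), and the groups were compared in limma 3.58.1 (lmFit, eBayes with a trend, R 4.3.3), group only, with Benjamini-Hochberg adjustment over all of these genes. The pseudocount shrinks the fold changes of low genes. Exact permutation tests over the 20 assignments were used for single values. For all 23002 genes the FPKM values were whole multiples of a step (tolerance 1e-05), and the reads given are the smallest whole numbers that fit, so they may be too low by a common factor for genes with few reads. Recovery was tested on simulated data, where 98.9% of 2951 genes came out exactly. Levels resting on few reads are imprecise.

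The members and the lists were chosen with earlier results of these data known. Named are the members and TRAF2, and of each other list the genes with an adjusted p under 0.05 and an absolute log2 fold change above 0.5 and the 3 with the smallest adjusted p. CHAD and ACOT1 are named as an overlapping and a near-identical gene. Other genes (ACSS2, PPT1, PANK4, ACSL6, ACSBG1, SLC27A6, ACOT8, ACOT13, THEM4, HIBCH) were named after their values were seen. FABP5, ACOT4, ACOT6, SLC27A2, AIF1, DCN and 5 ACSM genes were not analysed here. Sequences of promoters came from RefSeq, 3′ untranslated regions and gene positions from GENCODE release 29 (GRCh38) and target sequences from the study's supplement. Alternatives were pseudocounts of 1 and 0.01, no filter or a mean of at least 1 FPKM, TPM rescaling, quantile normalization, a replicate block, eBayes without a trend, limma-voom on the recovered reads (14138 genes with a mean of at least 10) and each sample left out. Scripts ran in Python 3.11.15 with pandas 2.3.3, numpy 2.4.6, matplotlib 3.10.9 and scipy 1.17.1.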

Additional observations from a re-analysis of the deposited data

How the results depend on the processing

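The falls of ACSL3, ACSL5, ACSF2 and ACOT2 kept an adjusted p under 0.05 from limma in every alternative in which they were tested, and ACSL5 drops out of the test at a mean of at least 1 FPKM. Over 23 gene values, 324 of 342 refits left both the sign and the call as they were, 16 lost a call, 1 gained a call and 1, SLC27A4 without sh-NC replicate 3 (-0.024), changed sign. Of 278 such refits of counts, of the ratio and of the shares, 27 moved. A count was taken as moved only if it changed by a large factor, or to or from 0. Smaller changes are thus not among the 27, such as 3 in place of 4 members lower at a mean of at least 1 FPKM. The difference in the ratio could not change with recovered reads or with the replicate block. The rise of ACOT7 was lost with quantile normalization (0.066) and with eBayes without a trend (0.11), so that 0 members were then called higher, and it ranged from 0.10 to 0.13 with a sample left out, with 0 or 1 members higher. The count of members lower with an absolute log2 fold change above 1 was 0 with a pseudocount of 1 and 0 to 1 with a sample left out. All genes past that threshold numbered 117 higher and 87 lower, 46 and 41 with a pseudocount of 1, which pulls fold changes towards 0, and 238 and 173 with limma-voom on the recovered reads. With no filter, 1 of the other synthetases was higher and 1 of the other thioesterases, and 1 gene of coenzyme A synthesis was lower. Limma-voom called 1 of the other synthetases higher, and eBayes without a trend called 2 other thioesterases lower. With a sample left out, SLC27A4 ranged from -0.024 to 0.16, the other thioesterases higher from 1 to 2, the carriers higher from 1 to 2, and coenzyme A synthesis from 1 to 2 higher and 1 to 2 lower. Apart from the pull of the pseudocount, the cause of these shifts was not tested.

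Over all tested genes the replicate numbers showed little pairing of the samples, with correlations of deviations of -0.0812, 0.0722 and 0.0728 for numbers 1, 2 and 3. Single genes may differ from this. With the number as a block, 4 members were lower and 1 higher, and 2912 genes were higher and 2539 lower in place of 2818 and 2479. The adjusted p from limma was 0.00217 for ACSL3 in place of 0.0105, and 0.0121 for ACSL5 in place of 0.00569. The block changed no call of the members, of TRAF2 or of the 12 other genes that the naming rule selected. The difference in the log2 ratio of ACSL4 to ACSL3 was 0.28, a size that the block cannot change in this balanced design. An exact test that flips signs within numbers gave p = 0.25, the smallest that 3 pairs allow.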

Other observations

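ACSBG1, an acyl-CoA synthetase of the bubblegum family that activates very long-chain fatty acids in brain, was below the filter on low values and was looked at after its values were seen. It had 44, 31 and 23 reads in sh-NC and 51, 59 and 89 in sh-TRAF2, or 0.134, 0.0936 and 0.0669 FPKM against 0.158, 0.186 and 0.274. The groups were separate. Limma-voom on the recovered reads gave a log2 fold change of 1.08 (95% interval 0.39 to 1.78, adjusted p = 0.0166), and limma on log2(FPKM + 0.1) without a filter gave 0.62 (adjusted p = 0.0923). SLC27A6, a fatty acid transport protein, was called higher in the same unfiltered fit (log2 fold change 0.41, adjusted p = 0.0112 from limma), its reads being 0, 0 and 1 in the sh-NC samples and 4, 3 and 4 in the sh-TRAF2 samples.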
